A study of Mus musculus with 16 samples.

Results

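Chromosome 2 carried 15655 of the 106385 H3K27me3 peaks that were called in 8 libraries of CCN6KOT cells. H3K27me3 is the trimethyl mark on lysine 27 of histone H3, and CCN6KOT cells are primary cells of a mouse breast tumour that lacks Ccn6. The members were chosen by position alone, as every peak on chromosome 2 in each of the 8 deposited peak lists, and were also merged across libraries wherever peaks overlapped. Merging gave 7601 regions, of 61441 on the 19 autosomes and X. The chromosome had been proposed with its share of covered length in each group known. Its shares of peaks and of covered length are therefore given as descriptions and were not tested.

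The dnTCF4 group holds 4 libraries from CCN6KOT cells transduced with a lentivirus for dnTCF4, a dominant negative form of TCF4, a transcription factor that acts with beta-catenin. The PPGS group holds 4 libraries from CCN6KOT cells transduced with the control lentivirus. Both groups share the CCN6 knockout tumour origin and puromycin selection; the promoter that drives dnTCF4 and the age of the animals are not given in the labels. The 8 IgG libraries were not used here. The labels number the libraries of a group 1 to 4 without saying whether each is its own culture. The p-values below therefore refer to the spread among libraries, possibly a technical one. Values per library are given in that order, 1 to 4.

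Polycomb repressive complex 2 writes H3K27me3 through its catalytic subunit EZH2, and the mark accompanies silencing of genes that belong to other lineages, with the Hox clusters as the best known example. In mammals the complex is usually found at CpG-rich promoters of developmental genes, and the mark can also spread in broad stretches over silent genes and the space between them. Chromosome 2 of the mouse holds the Hoxd cluster, a large group of olfactory receptor genes, and tandem families of beta-defensin, seminal vesicle, cystatin and BPI-fold genes that are used mainly in the male reproductive tract, the airways and the glands.

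The lists differed greatly in length, and the lengths crossed the groups. Chromosome 2 held 3729, 31, 1385 and 450 peaks in dnTCF4 libraries 1 to 4, and 58, 99, 6493 and 3410 peaks in PPGS libraries 1 to 4. A peak list holds no reads, so depth is unknown, and where no peak was called the mark may still be there. Nor can a list tell a mark on every cell from a mark on some of the cells. Chromosome 9 took 66.9% of the covered length in dnTCF4 library 2, and between 3.19% and 18.4% in the other dnTCF4 libraries. In PPGS libraries 1 and 2 it took 43.0% and 32.3%, and under 3% in the other two.

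Promoters that lay directly under a chromosome 2 peak were few and poor in CpG. RefSeq promoter windows (GRCm38.p6), from 250 bases before to 50 bases after a start site, were given for 1544 of the 1782 chromosome 2 genes, as 1868 windows. Only 72 windows, of 67 genes, were overlapped by a peak in any library. The 3 windows under a peak in 4 libraries belonged to Wfdc15b, a whey acidic protein family gene, Ppp1r16b, a regulator of protein phosphatase 1, and Fermt1, which encodes the epithelial integrin activator kindlin-1. Klhl23, a kelch family gene, has start sites of both kinds. Its upstream start lay under a peak in 1 dnTCF4 and 2 PPGS libraries. Its downstream, CpG-rich start lay under none, although a peak came within 2 kb of that start in 3 dnTCF4 and 3 PPGS libraries. Ppp1r26, a phosphatase 1 regulatory gene, also had a CpG-rich start under no peak, with a peak within 2 kb of it in 3 dnTCF4 and 4 PPGS libraries. The windows are shown 5′ to 3′ to let the CpG content of the covered and the bare promoters be compared; capitals mark CpG.
Wfdc15b promoter, chr2:164221614-164221913, minus strand: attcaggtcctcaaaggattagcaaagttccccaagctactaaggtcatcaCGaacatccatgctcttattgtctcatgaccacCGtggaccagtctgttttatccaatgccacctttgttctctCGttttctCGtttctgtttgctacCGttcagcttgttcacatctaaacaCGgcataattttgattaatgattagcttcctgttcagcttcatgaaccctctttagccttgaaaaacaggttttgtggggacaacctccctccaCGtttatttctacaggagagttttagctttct
Fermt1 promoter, chr2:132945987-132946286, minus strand: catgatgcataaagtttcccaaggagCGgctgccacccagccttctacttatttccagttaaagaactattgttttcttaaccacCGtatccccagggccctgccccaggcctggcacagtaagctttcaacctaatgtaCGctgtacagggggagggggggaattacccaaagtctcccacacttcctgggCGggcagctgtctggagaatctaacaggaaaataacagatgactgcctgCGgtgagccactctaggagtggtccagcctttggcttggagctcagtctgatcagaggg
Klhl23 promoter, chr2:69821691-69821990, plus strand: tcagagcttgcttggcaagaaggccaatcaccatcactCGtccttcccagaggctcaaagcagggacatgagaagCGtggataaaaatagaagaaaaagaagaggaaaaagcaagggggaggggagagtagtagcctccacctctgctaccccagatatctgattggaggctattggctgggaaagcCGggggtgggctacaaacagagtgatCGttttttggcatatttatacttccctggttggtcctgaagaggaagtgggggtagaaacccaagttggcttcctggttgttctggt
Klhl23 promoter, chr2:69822591-69822890, plus strand: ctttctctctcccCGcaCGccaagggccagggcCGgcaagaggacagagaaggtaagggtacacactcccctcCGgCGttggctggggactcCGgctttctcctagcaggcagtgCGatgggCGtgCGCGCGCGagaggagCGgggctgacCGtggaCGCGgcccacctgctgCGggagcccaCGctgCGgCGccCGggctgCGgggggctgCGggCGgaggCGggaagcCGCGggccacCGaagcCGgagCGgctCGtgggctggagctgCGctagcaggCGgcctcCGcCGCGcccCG
Ppp1r26 promoter, chr2:28446820-28447119, plus strand: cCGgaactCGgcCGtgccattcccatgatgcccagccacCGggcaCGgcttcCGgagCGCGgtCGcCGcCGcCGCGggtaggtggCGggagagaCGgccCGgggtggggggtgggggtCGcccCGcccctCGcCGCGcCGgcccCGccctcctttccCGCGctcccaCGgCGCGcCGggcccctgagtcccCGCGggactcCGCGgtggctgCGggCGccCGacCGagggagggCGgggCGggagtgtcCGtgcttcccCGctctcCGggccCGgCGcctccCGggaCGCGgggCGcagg

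These windows held 7 CpG in Wfdc15b, 5 in Fermt1 and 4 at the upstream Klhl23 start, against 37 at the downstream Klhl23 start and 48 in Ppp1r26. The 72 covered windows had a median of 5 CpG, with quartiles of 3 and 8. The 1796 chromosome 2 windows with no peak had a median of 13, and the 1551 of these outside the CpG-poor olfactory receptor genes had a median of 16. At least 10 CpG were found in 18.1% of the covered windows and in 57.1% of the windows with no peak. No window was covered in dnTCF4 library 2 or in PPGS libraries 1 and 2. In the other libraries the median CpG number of covered windows was 5, 6 and 7 in dnTCF4 libraries 1, 3 and 4, against 5 and 4 in PPGS libraries 3 and 4. The single window in dnTCF4 library 4 was that of Wfdc15b.

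Coverage around the start sites dropped at the start itself, and most where the promoter was CpG-rich. Windows with at least 10 CpG are called CpG-rich here, and olfactory receptor genes were left out, which left 1039 CpG-rich and 584 CpG-poor windows on chromosome 2. At CpG-rich starts, peaks covered 0.775% of the bases within 500 bases of the start in dnTCF4 library 1 and 4.23% of the bases 2 to 5 kb away. The same 2 values were 0.263% and 1.28% in dnTCF4 library 3, 0.882% and 5.73% in PPGS library 3, and 0.161% and 2.38% in PPGS library 4. The coverage at the start was thus 0.183 and 0.206 of that 2 to 5 kb away in these dnTCF4 libraries, and 0.154 and 0.0676 of it in these PPGS libraries. At CpG-poor starts that ratio was higher in each of the 4, at 0.806 and 0.533 in dnTCF4 libraries 1 and 3 and 0.687 in both PPGS libraries 3 and 4. The drop was not confined to chromosome 2. Over the 11018 CpG-rich windows of the other chromosomes the ratio was 0.110 and 0.0853 in dnTCF4 libraries 1 and 3, and 0.0916 and 0.0648 in PPGS libraries 3 and 4. Covered windows also had less G and C, with a median of 49.8% against 56.0% in windows with no peak. The part that base composition plays in the recovery of fragments was not tested. Windows of 1 gene can overlap, so these are descriptions of sites and not of independent units.

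**Figure D1:**
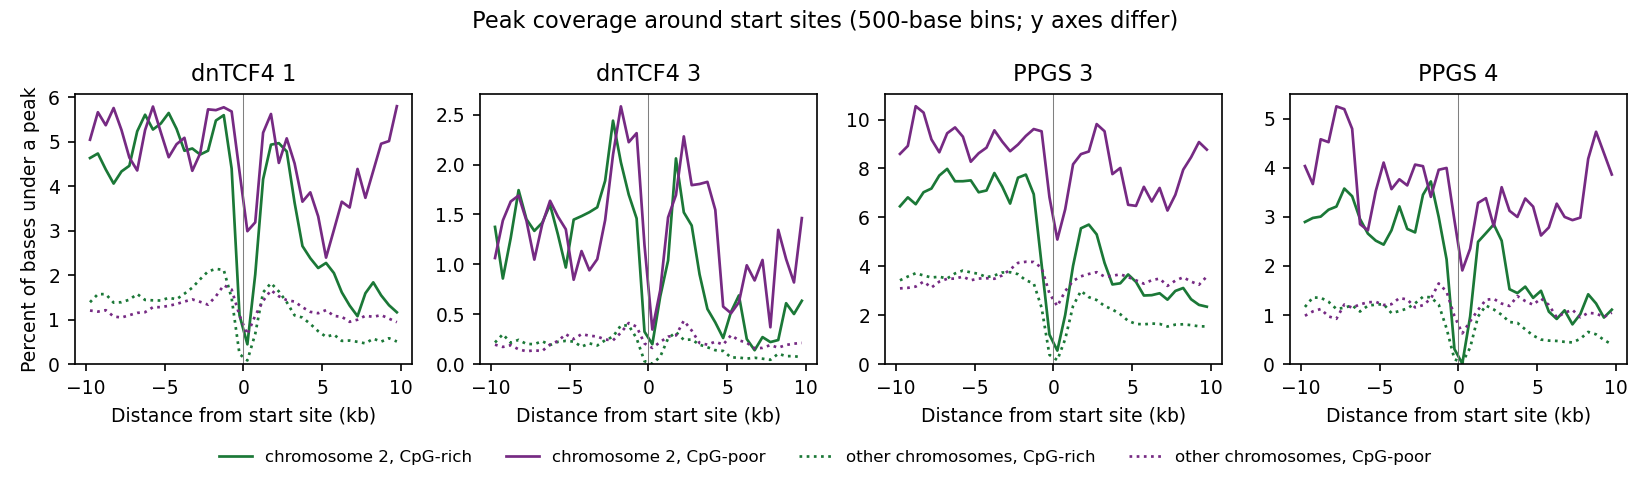
Percent of bases under a peak (y axis) against the distance from the start site in kb (x axis, 500-base bins), in the 2 dnTCF4 and the 2 PPGS libraries with the most chromosome 2 peaks. Solid lines are chromosome 2, dotted lines the other chromosomes, green CpG-rich and purple CpG-poor promoters; the green solid line dips to near 0 at the start in every panel, and lies between 1.28% and 5.73% on average 2 to 5 kb away.

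The hexamer CTTTGA, the core letters of many TCF/LEF binding sites, was looked for on both strands of the same windows. It was present in 15 of the 72 covered windows (20.8%), Wfdc15b and the upstream Klhl23 start among them. It was present in 12.7% of chromosome 2 windows with no peak and in 14.4% of all 21044 windows of the genome. In olfactory receptor windows, which are rich in A and T, the share was 21.2%. A match is a string of letters and not a binding site.

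Of the 66 miRNA hairpins that RefSeq places on chromosome 2, 3 lay under a peak and 7 had a peak within 2 kb. For scale, the merged regions covered 4.78% of the chromosome, and 3 of 66 is near that share. The hairpins are thus listed as places, not as a set favoured by peaks. Mir670 was the most recurrent, covered in 3 dnTCF4 and 2 PPGS libraries. Mir7221 was covered in 0 dnTCF4 and 2 PPGS libraries, and Mir3088 in 0 dnTCF4 and 1 PPGS library. The 2 mature products of Mir670 (GRCm38.p6, minus strand) are shown with the seed, bases 2 to 8, in capitals; their seeds differ.
mmu-miR-670-5p, chr2:94261358-94261379: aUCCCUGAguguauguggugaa
mmu-miR-670-3p, chr2:94261316-94261340: uUUCCUCAuauccauucaggagugu

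Chromosome 2 was peak-rich in every library relative to its annotated length, and so were chromosomes 5, 15 and 17. On chromosome 15, with 3.95% of the length, the mean share of peaks was 16.3% in dnTCF4 and 18.4% in PPGS libraries. Chromosome 2 makes up 6.92% of the annotated length and 8.24% of the protein-coding genes. Its share of a library's peaks was 17.4%, 16.2%, 28.4% and 24.5% in dnTCF4 libraries 1 to 4, and 13.6%, 13.4%, 12.0% and 15.0% in PPGS libraries 1 to 4. Every dnTCF4 value lay above every PPGS value, with means of 21.6% ± 5.80 and 13.5% ± 1.22 (SD, n = 4 each). The shortest lists give this share loosely: the 95% Wilson interval was 11.7% to 22.1% in dnTCF4 library 2 and 10.7% to 17.2% in PPGS library 1, and covers counting error only. By covered length, the chromosome took 21.0%, 7.59%, 30.1% and 23.0% in dnTCF4 libraries, and 6.77%, 9.13%, 13.6% and 15.8% in PPGS libraries, and here the groups overlapped. With chromosome 9 left out of the total, a choice made after seeing the data, the shares were 21.7%, 22.9%, 32.7% and 28.2% in dnTCF4 libraries and 11.9%, 13.5%, 14.1% and 16.3% in PPGS libraries, with no overlap. The median fold enrichment of chromosome 2 peaks, the authors' ratio over background for each peak, lay close to that of the library's other peaks. It was 3.50 on chromosome 2 and 3.49 elsewhere in dnTCF4 library 1, 4.79 and 4.70 in library 2, 4.02 and 4.06 in library 3, and 4.45 and 4.49 in library 4. In PPGS libraries 1 to 4 it was 4.55 and 4.46, 4.66 and 4.58, 3.03 and 3.00, and 3.398 and 3.386. The chromosome 2 median was thus slightly the higher in all but dnTCF4 libraries 3 and 4, which was not tested.

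Cutting all 8 lists to the 191 peaks with the highest −log10 q left 29, 31, 38 and 30 chromosome 2 peaks in dnTCF4 libraries 1 to 4, against 27, 22, 22 and 21 in PPGS libraries 1 to 4. With only the 5 lists of at least 1000 peaks, each cut to 1838 peaks, chromosome 2 held 19.3%, 26.6% and 24.5% in dnTCF4 libraries 1, 3 and 4, against 14.4% and 15.5% in PPGS libraries 3 and 4. The order of the groups was kept in both cuts, and the gap was smaller in the first, with a difference of 4.71 percentage points against 8.10 in the full lists.

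Within chromosome 2, the groups separated past the midpoint. The midpoint of the annotated chromosome, at 91.0 Mb, divides the proximal from the distal part, and 52.2% of its genes lie past it. The distal part held 70.8%, 87.9%, 75.5% and 72.0% of the covered length in dnTCF4 libraries 1 to 4, and 59.5%, 59.96%, 59.9% and 62.9% in PPGS libraries 1 to 4. The lowest dnTCF4 value lay above the highest PPGS value, and the means were 76.6% ± 7.81 and 60.6% ± 1.59 (SD, n = 4 each). The difference of 15.98 percentage points had a two-sided exact permutation p of 0.0286, the smallest that 4 against 4 libraries can give, and a Benjamini-Hochberg adjusted p of 0.171 over the 6 measures tested, which does not pass 0.05. It was 7.95 points (exact p = 0.257) with peaks of −log10 q of at least 3, and 7.09 points (exact p = 0.1, the smallest possible) with the 5 longer lists cut to equal number. The chromosome was chosen with its share in each group known, and the higher dnTCF4 share lay mostly in the distal part. These p-values are therefore not independent of that choice.

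Set against all of a library's peaks outside chromosome 9, the proximal part of the chromosome differed little. It held 5.80%, 3.10%, 7.57% and 7.63% of them in dnTCF4 libraries, and 6.09%, 5.57%, 5.30% and 5.74% in PPGS libraries, so that the groups overlapped. The distal part held 12.1%, 20.9%, 21.6% and 18.4% in dnTCF4 libraries and 9.97%, 9.34%, 7.13% and 9.61% in PPGS libraries, with no overlap. The ratio of the group means was 1.06 for the proximal and 2.02 for the distal part. These shares include the chromosome's own share, which is tied to its choice, and were not tested.

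**Figure D2:**
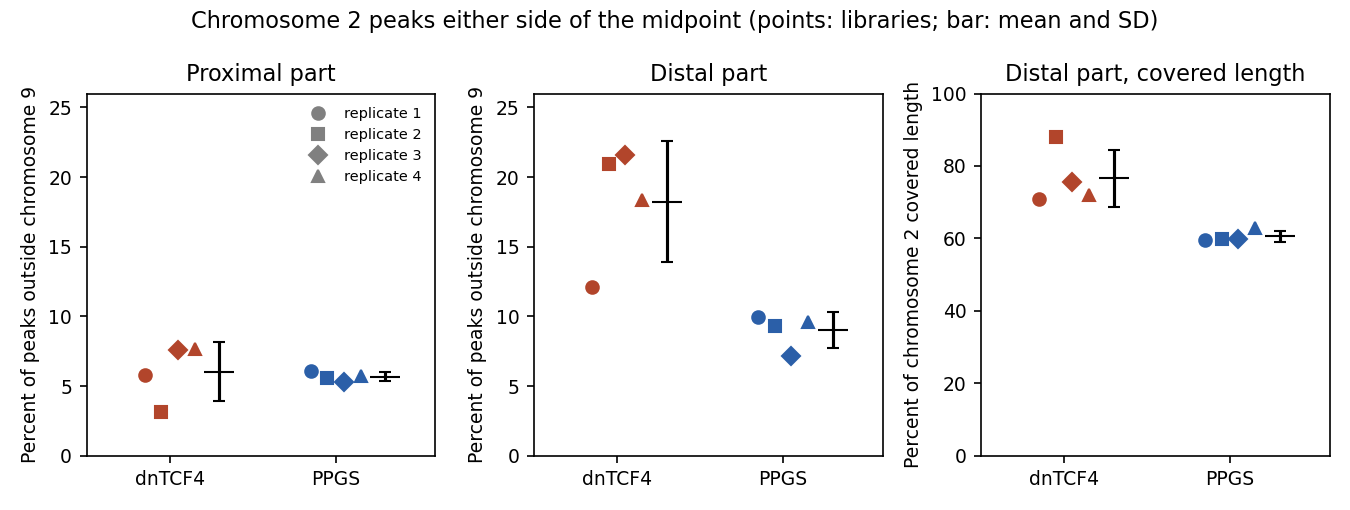
Share of each library's peaks outside chromosome 9 that lie in the proximal (left) and distal (middle) part of chromosome 2, and the distal share of the covered length on chromosome 2 (right), all in percent. Points are libraries, dnTCF4 left and PPGS right, and bars are the mean and SD (n = 4); the proximal shares overlap, with means of 6.03% and 5.67%, and the distal ones do not, with means of 18.2% and 9.01%.

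In steps of 10 Mb, the mean share of peaks was higher in dnTCF4 libraries in all 12 bins from 70 Mb to the end, by 1.61 to 2.63 times, and in 3 of the 7 bins before it. Every dnTCF4 library lay above every PPGS library in 3 of the 19 chromosome 2 bins. Over all 262 bins outside chromosome 9 it did so in 5 (1.91%), these 3 among them. The opposite order was seen in 0 chromosome 2 bins, against 1.53% of the 262. Bin shares include the chromosome's own share, which is tied to its choice, so these counts are descriptions and were not tested. The 3 bins with every dnTCF4 library higher began at 70, 120 and 150 Mb. The first holds Hoxd, Evx2, Sp5 and Sp9, and its share was 1.56%, 2.33%, 2.46% and 2.31% in dnTCF4 libraries against 0%, 1.36%, 1.11% and 1.43% in PPGS libraries. The bin at 150 Mb, with the beta-defensin and BPI-fold families, had 1.95%, 3.10%, 4.23% and 3.76% in dnTCF4 libraries against 1.94%, 1.51%, 1.04% and 1.58% in PPGS libraries. The bin at 20 Mb leaned the other way. By share of peaks the groups overlapped there, and only PPGS libraries 1 and 2 lay above every dnTCF4 library. By share of the chromosome 2 covered length, a different measure, every PPGS library lay above every dnTCF4 library. The bin held 6.82%, 0%, 5.99% and 6.85% of that length in dnTCF4 libraries, and 32.4%, 18.4%, 8.65% and 10.2% in PPGS libraries. The bin at 160 Mb, with the Wfdc and seminal vesicle genes and Cdh22, held 41.6% of that length in dnTCF4 library 2.

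**Figure D3:**
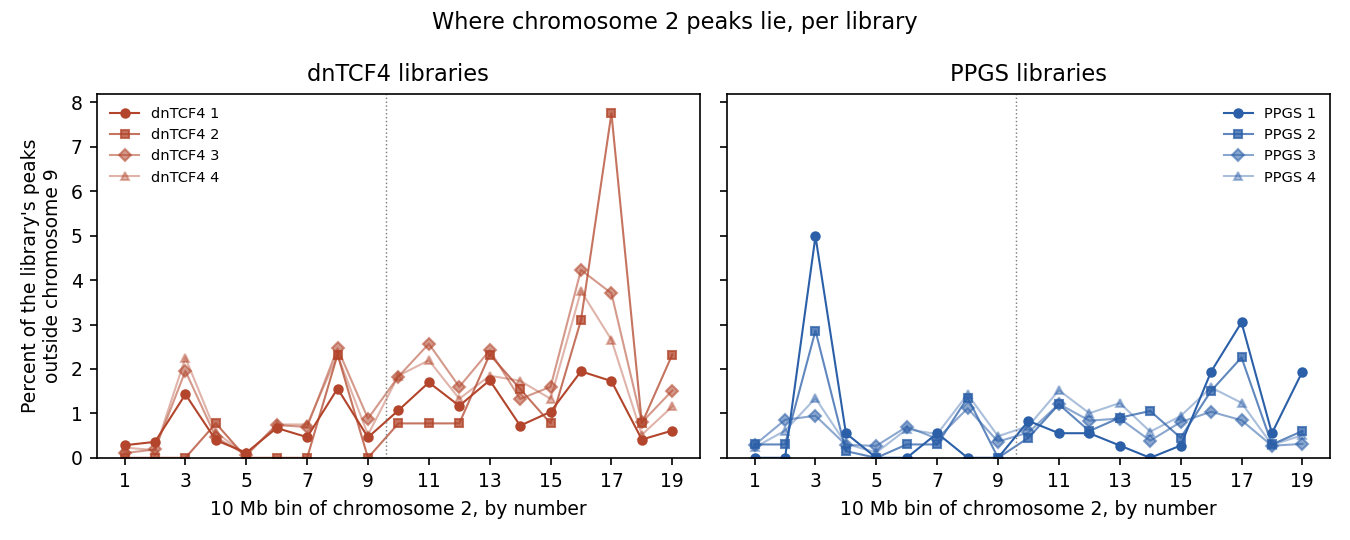
Percent of each library's peaks outside chromosome 9 (y axis) in the 19 consecutive 10 Mb bins of chromosome 2, numbered from the proximal end (x axis), for the 4 dnTCF4 libraries (left) and the 4 PPGS libraries (right); the dotted line is the midpoint. From bin 8 on, the dnTCF4 mean is higher in each bin, and the tallest point is bin 17 of dnTCF4 library 2, at 7.75%.

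In the longer lists, this unevenness along the chromosome was not particular to chromosome 2. Measured the same way in the 5 longer lists, the distal share differed between dnTCF4 libraries 1, 3 and 4 and PPGS libraries 3 and 4 by 11.4 points on chromosome 2, with means of 72.8% and 61.4%. On 9 of the 19 other chromosomes the groups did not overlap either, with differences over all 19 from −19.5 to 17.5 points, and chromosome 2 ranked sixth by size. The −19.5 points were those of chromosome 9, where the groups overlapped. Of the 9, chromosomes 7 and 18 shifted towards the proximal part and the others, like chromosome 2, towards the distal part. Some rest on few peaks: chromosome 12 had 6 and 9 in dnTCF4 libraries 3 and 4, against 1385 and 450 on chromosome 2. The short lists, left out here, did not always keep the order. On chromosome 15 the distal share was 90.4% in PPGS library 1 and 72.3% in dnTCF4 library 1. Copy number, which a peak list does not hold, was not tested as a part of these shifts.

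The other 5 measures of chromosome 2 did not differ beyond the spread between libraries. The geometric mean number of peaks was 518 in dnTCF4 and 597 in PPGS libraries (exact permutation p = 0.943, adjusted 0.971, n = 4 each), and the covered length was 0.279 and 0.324 Mb (exact p = 0.943). The median peak width was 396 and 398 bases (exact p = 0.971). Peaks within 2 kb of an annotated gene end made up 11.9% ± 3.84 in dnTCF4 and 11.3% ± 1.07 in PPGS libraries (exact p = 0.8). Peaks that overlapped a gene body by at least 1 base made up 38.6% ± 2.36 and 35.2% ± 2.57 (exact p = 0.114, adjusted 0.343). This measure does not leave out peaks at gene ends, so the 2 classes overlap. For scale, end windows cover 6.52% and gene bodies 44.7% of the chromosome. Both group means lay above the share of space at gene ends and below it in gene bodies, but dnTCF4 library 2 had 6.45% at gene ends. A peak counts here with 1 base of overlap, so a share of peaks and a share of bases are unlike measures.

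Merged, the 7601 regions covered 8.70 Mb, or 4.78% of chromosome 2. Gene ends were touched by 783, a further 2412 lay in gene bodies, and 4406 lay between genes, 1523 of them over 50 kb from any gene. The median length was 658 bases, with 211 regions of at least 5 kb and 15 of at least 10 kb. A single library supplied 4256 regions, 3120 of which came from PPGS library 3, the longest list. Recurrence went with length and with gene ends. Regions seen in 1 library had a median length of 396 bases and touched a gene end in 6.79% of cases. The 553 regions seen in 4 libraries had a median of 2407 bases and 19.7% at gene ends, and the 58 seen in 6 had 4354 bases and 36.2%. Longer regions have more bases in which a peak can fall and more that can touch a gene end. Length, recurrence and the share at gene ends are therefore not independent.

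A peak in all 8 libraries was found in 9 regions, of which 7 are described here. One between genes, chr2:168240542-168245534, is 8.24 kb from Mocs3, a molybdenum cofactor gene, with 5.29, 7.83, 5.23 and 8.24 in dnTCF4 libraries and 4.33, 6.86, 4.18 and 4.06 in PPGS libraries, where 1 PPGS library is among the high values. The region at the end of Dlgap4, a synaptic scaffold gene, is chr2:156605601-156613044 and had 4.13, 5.26, 4.56 and 3.83 in dnTCF4 libraries and 5.07, 5.81, 3.90 and 4.11 in PPGS libraries, with full overlap. Fold enrichment is set by each library's own background, so it ranks peaks within a list and is not compared between groups with a test.

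Cdh22, a brain cadherin gene, had regions of this kind at its end, chr2:165235776-165238557, and in its body, chr2:165202549-165204166. Further ones lay in the body of Plcb2, a phospholipase C gene (chr2:118719663-118722308), 7.89 kb from Gm14279 (chr2:157509503-157513766), and 137 kb from Bmp7, a bone morphogenetic protein gene (chr2:172729233-172730885). All 9 lie in the distal part. A region in 4 dnTCF4 and 3 PPGS libraries, chr2:74807832-74816604, fills part of the space between Hoxd1 and Mtx2, 9.21 kb from Mtx2.

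**Figure D4:**
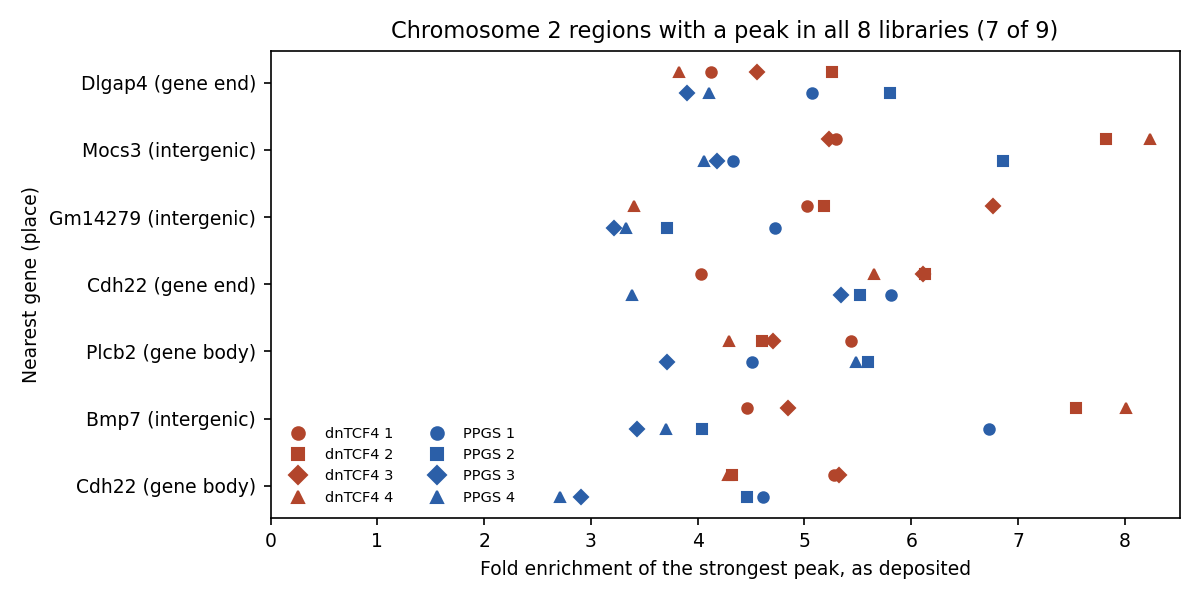
Fold enrichment of the strongest peak (x axis, the authors' ratio over background) in 7 of the 9 chromosome 2 regions that have a peak in all 8 libraries (y axis, nearest gene and place), with dnTCF4 libraries in red above PPGS libraries in blue. At the Mocs3 region 1 PPGS library, at 6.86, stands among the dnTCF4 values, and the Dlgap4 values of the groups overlap fully.

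Some of these regions also led when each chromosome 2 list was cut to 31 peaks by −log10 q. The cut lists merged into 134 regions, 85 of them in 1 library, 49 in at least 2 and 11 in at least 4. The Mocs3 region stayed in all 8 lists. The Cdh22 body, the Bmp7 and an Ak8 region stayed in 7, and Ak8, an adenylate kinase gene, was missing only in dnTCF4 library 2. Of the 31 peaks, 24, 27, 25 and 25 lay in the distal part in dnTCF4 libraries, against 20, 24, 22 and 25 in PPGS libraries, so that the groups overlapped. The last peak kept had a −log10 q of 4.31, 1.06, 3.51 and 3.30 in dnTCF4 libraries and 1.44, 2.281, 4.40 and 3.64 in PPGS libraries, so the cut is far stricter in the long lists.

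The longest region, chr2:103294073-103308082, spans 14010 bases over one end of Ehf, an ETS factor gene of epithelial cells. Its fold enrichment was 4.20, 4.67 and 4.89 in dnTCF4 libraries 1, 3 and 4, and 4.71, 3.603 and 4.29 in PPGS libraries 2, 3 and 4. The next were 13377 bases beside Them7, 12995 bases beside Fam98b, 12878 bases in Ak8 and 12482 bases in 4921504E06Rik. The region at Prdm12, a factor of pain-sensing neurons, had 11272 bases, and the one in Abcb11, the liver bile salt pump gene, 11104 bases. Of these, the Them7 and Ak8 regions had a peak in 3 dnTCF4 and 4 PPGS libraries, and the 4921504E06Rik region in 1 dnTCF4 and 2 PPGS libraries.

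At gene level, 407 of the 1782 chromosome 2 genes (22.8%) had a peak within 2 kb of an annotated end in at least 1 library, against 15.8% of all 21627 genes. The share was 16.05%, 0.112%, 8.98% and 2.97% in dnTCF4 libraries 1 to 4, and 0.449%, 0.673%, 20.4% and 13.7% in PPGS libraries 1 to 4. Over all genes it was 9.28%, 0.0925%, 2.83% and 1.07% in dnTCF4 libraries, and 0.296%, 0.356%, 14.5% and 7.67% in PPGS libraries. The chromosome 2 value was the higher in each library, but it rested on 2 genes in dnTCF4 library 2 and on 8 in PPGS library 1. At least 2 libraries of both groups marked 137 genes (7.69%), against 2.51% of all genes. RefSeq start sites were at hand for 331 of the 407 genes. A peak lay within 2 kb of a start site in 263 of these and only at the far end in 68.

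The most recurrent genes were Ppp1r26 and Cd40, an immune co-stimulatory receptor gene, with 7 libraries each. Peaks covered 53.7%, 0%, 60.1% and 18.7% of the better covered end window of Ppp1r26 in dnTCF4 libraries, and 16.9%, 9.85%, 62.8% and 34.7% in PPGS libraries. For Cd40 the window was covered to 39.3%, 0%, 42.3% and 36.5% in dnTCF4 libraries and to 6.65%, 8.47%, 44.1% and 37.8% in PPGS libraries. The groups overlap for both genes, and the low values are those of the short lists. Another 10 genes were marked in 6 libraries. They include Prokr2, a prokineticin receptor gene, Ehf, the transglutaminase gene Tgm7, Prdm12, Galnt3, which starts O-linked glycosylation, and Rapgef4, a cAMP-activated exchange factor gene. Slc2a10, a glucose transporter gene, Klhl23, Trp53i11 and Defb28, a beta-defensin gene, complete them.

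Gene lists were read against the 22.8% of chromosome 2 genes marked in at least 1 library. They were chosen with earlier results of these data known and get no test, and neighbours in a tandem family can share a peak. Both lists of developmental regulators lay above that share. In the Hoxd cluster with Evx2, the genes that set limb and trunk pattern, 9 of 10 genes were marked, with Hoxd9 the exception. The counts were 6, 0, 2 and 1 in dnTCF4 libraries and 0, 0, 7 and 7 in PPGS libraries. Hoxd11 had 34.99%, 0%, 7.72% and 0% of its better window covered in dnTCF4 libraries and 0%, 0%, 43.2% and 18.0% in PPGS libraries. Of 45 other developmental transcription factor genes, 27 were marked, in counts of 23, 1, 10 and 2 in dnTCF4 libraries and 0, 0, 23 and 15 in PPGS libraries. Pax1, a sclerotome factor, was the one marked in dnTCF4 library 2, with coverage of 43.4%, 5.75%, 25.04% and 0% in dnTCF4 libraries and 0%, 0%, 50.3% and 32.4% in PPGS libraries. Hnf4a, a liver and gut factor, had 37.9%, 0%, 5.60% and 4.67% in dnTCF4 libraries and 0%, 0%, 45.0% and 37.5% in PPGS libraries. Pax6, Dlx1, Dlx2, Snai1, Zeb2 and Cebpb were among the 18 with no peak at an end.

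Neural genes were marked in 24 of 38 cases. The counts were 16, 0, 8 and 2 in dnTCF4 libraries and 0, 0, 20 and 14 in PPGS libraries. Kcng1, a modifier of potassium channels, had 55.7%, 0%, 34.4% and 0% covered in dnTCF4 libraries and 0%, 0%, 66.96% and 24.2% in PPGS libraries. Slc32a1, the vesicular transporter of GABA and glycine, had 19.6%, 0%, 19.97% and 9.52% in dnTCF4 libraries and 0%, 0%, 34.1% and 19.0% in PPGS libraries. Of 5 muscle genes, 4 were marked, in no dnTCF4 library and, as 4 and 1 genes, in PPGS libraries 3 and 4. Actc1, cardiac alpha-actin, was covered to 55.8% in PPGS library 3 alone. PPGS library 3 is also the longest list, and the part of list length in these counts was not tested.

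The beta-defensin family had 90.9% of its genes marked, close to the Hoxd list. Of its 11 genes, which encode antimicrobial peptides that mouse epididymis uses widely, 10 were marked, in counts of 10, 0, 8 and 4 in dnTCF4 libraries and 0, 2, 10 and 10 in PPGS libraries. Defb26 had 84.0%, 0%, 50.04% and 9.17% of its better window covered in dnTCF4 libraries and 0%, 0%, 88.5% and 67.1% in PPGS libraries. Of 20 Wfdc and Svs genes, which encode protease inhibitors and seminal vesicle proteins, 17 were marked. Their counts were 15, 0, 8 and 3 in dnTCF4 libraries and 0, 0, 14 and 12 in PPGS libraries. Wfdc2, Wfdc3 and Wfdc11 were the ones without a peak. Of 14 genes whose symbol begins with Cst, 8 were marked; Cstf1, Cstf3 and Cstad share the prefix without being cystatins and had none. Of 13 BPI-fold genes 9 were marked, in counts of 5, 0, 2 and 0 in dnTCF4 libraries and 0, 0, 9 and 7 in PPGS libraries. Olfactory receptor genes, the most numerous family, went the other way: 1 of 287 was marked, Olfr1274, in PPGS libraries 3 and 4.

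The lists of tumour cell state and signalling held marked and unmarked genes. Of 14 epithelial genes, 6 were marked. Ehf had 82.7%, 0%, 35.2% and 30.2% of its better window covered in dnTCF4 libraries and 0%, 10.2%, 100% and 74.0% in PPGS libraries. Spint1, an inhibitor of epithelial surface proteases, had 30.4%, 0%, 51.9% and 18.8% in dnTCF4 libraries and 0%, 0%, 46.7% and 33.5% in PPGS libraries. Elf5, Itga6, Itgb6 and Lcn2 had no peak at an end. Of 11 mesenchymal genes only the metalloproteinase genes Mmp9 and Mmp24 were marked, and Vim, Cd44, Fap and Fbn1 had none. Of 21 signalling genes, 7 were marked. Frzb, a secreted WNT antagonist, had 20.6%, 0%, 30.3% and 0% covered in dnTCF4 libraries and 0%, 0%, 36.2% and 45.1% in PPGS libraries. Bmp2 had 29.4%, 0%, 6.97% and 6.22% in dnTCF4 libraries and 0%, 0%, 29.3% and 18.2% in PPGS libraries. Notch1, Jag1, Lgr4 and Grem1 had no peak at an end. None of the 20 housekeeping genes, such as Psma7, Rps21 and Hspa5, was marked in any library, which at this unknown depth does not show that the mark is absent. The lists hold no expression values, so the labelled cell type was not checked against its markers.

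**Figure D5:**
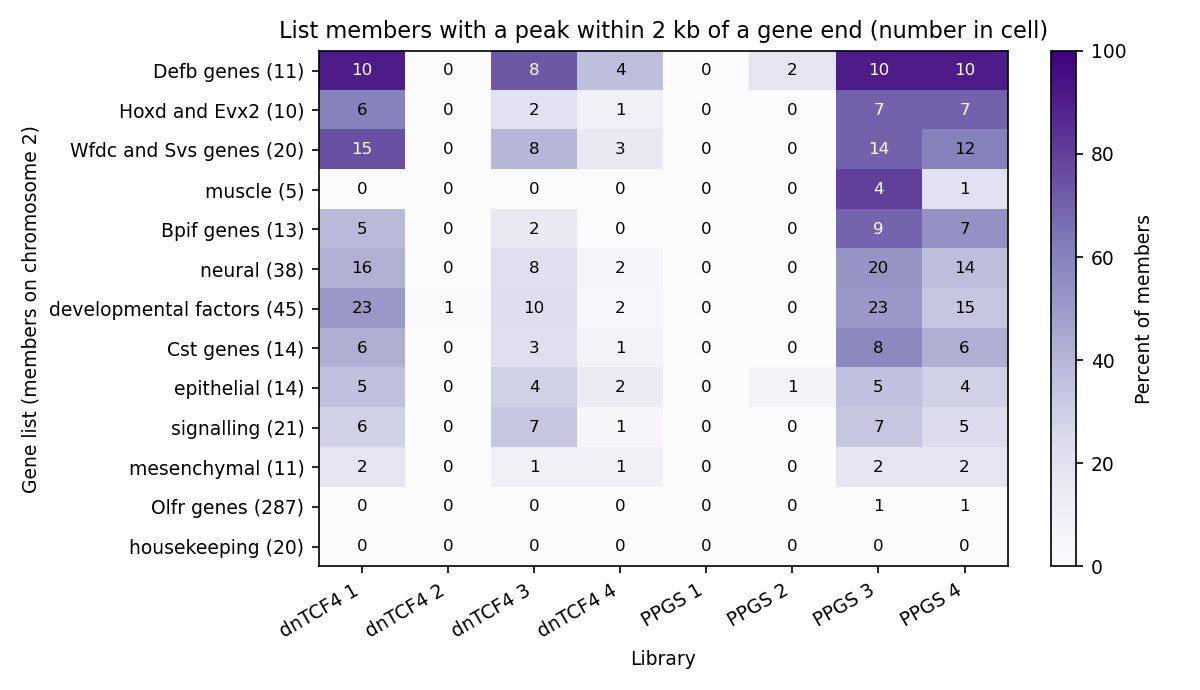
Number of genes of each list with a peak within 2 kb of an annotated end (figure in each cell) in the 4 dnTCF4 and the 4 PPGS libraries (x axis), with the list and its number of chromosome 2 genes on the y axis and the percent of members as colour. The beta-defensin list reaches 10 of 11 in dnTCF4 library 1 and in PPGS libraries 3 and 4, and the housekeeping list is at 0 throughout.

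Few genes were marked in 1 group alone. At least 2 dnTCF4 libraries and no PPGS library marked 5 chromosome 2 genes (0.281%), against 0.0601% of all genes, or 13 in all. At least 2 PPGS libraries and no dnTCF4 library marked 27 (1.52%), against 1.42% of all genes. Fisher's exact test, adjusted over the 3424 genes of the genome marked in at least 1 library, called 0 chromosome 2 genes. An unadjusted p under 0.05 was found for 0 of them, and the lowest was 0.143, for 3 against 0 libraries. A p under 0.05 needs a mark in all 4 libraries of 1 group and 0 of the other. The shortest lists, dnTCF4 library 2 and PPGS library 1, marked only 2 and 8 chromosome 2 genes. The test could therefore hardly call a gene, and the 0 calls are not read as a lack of difference. Frmd5 encodes a FERM domain protein of cell adhesion. Its better covered end window was covered to 51.3%, 0%, 10.5% and 12.9% in dnTCF4 libraries and to 0% in all 4 PPGS libraries. Inside the gene, however, PPGS library 4 had a peak. Avp, the vasopressin gene, had 35.1% and 12.1% in dnTCF4 libraries 1 and 3. Foxs1, a forkhead factor gene, had 18.1% and 20.3%, Dcaf17 24.1% and 18.6%, and Large2 3.90% and 17.0% in the same 2 libraries. The end windows of all 5 were at 0% in every PPGS library. The rule was met by 1 gene without dnTCF4 library 1 or without dnTCF4 library 3, by 19 without PPGS library 3 and by 8 without PPGS library 4.

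The 27 genes of the PPGS rule rested on PPGS libraries 3 and 4, the long lists, and 0 met it with either left out; 93 met it without dnTCF4 library 1. Lcn4, a lipocalin gene, was covered to 87.9% and 46.1% there, and Il2ra, the interleukin 2 receptor alpha gene, to 67.2% and 21.8%. Eef1a2, an elongation factor gene of neurons and muscle, had 60.5% and 29.8%, Slc28a2b 47.7% and 40.9%, and Dbh, the noradrenaline synthesis gene, 38.9% and 19.5%. Each was at 0% in all 4 dnTCF4 libraries.

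Regions were counted by the same rules. The dnTCF4 rule was met by 48 regions (0.631%), against 0.216% of all regions, and the PPGS rule by 625 (8.22%), against 9.84%. At least 2 libraries of both groups held 844 regions (11.1%), against 5.41%. The dnTCF4 count was 5 without dnTCF4 library 1, 10 without dnTCF4 library 3 and 224 without PPGS library 3. The PPGS count was 1401 without dnTCF4 library 1, and 1 and 3 without PPGS libraries 3 and 4. No region had an unadjusted Fisher's exact p under 0.05, which again needs all 4 libraries of 1 group and 0 of the other. With lists this short the test could hardly call a region either. Of the 5 regions in 3 dnTCF4 and 0 PPGS libraries, 2 were at Frmd5. The first, chr2:121807912-121810292, lies 0.825 kb outside the gene, beside its end of higher coordinate. It had a fold enrichment of 3.75, 3.86 and 4.31 in dnTCF4 libraries 1, 3 and 4. The second, chr2:121769480-121769917, lies in the gene body, with 4.41, 3.31 and 4.19. The others lay 33.2 kb from Fam210b, 15.4 kb from Slc17a9 and 33.1 kb from Slc24a5. Between the 2 Frmd5 regions, chr2:121800243-121801756 in the gene body had a peak in 3 dnTCF4 libraries and in PPGS library 4, with 3.29 in the latter. On the other side, chr2:160522214-160524177, 122 kb from Top1, had a peak in 1 dnTCF4 and 4 PPGS libraries, with 3.53 in dnTCF4 library 1 and 4.94, 5.82, 3.26 and 3.43 in PPGS libraries. The region chr2:127623157-127624708, 8.52 kb from Mal, a membrane traffic gene of polarised epithelia, had a peak in 0 dnTCF4 and 3 PPGS libraries.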

How the data were processed

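ChIPmentation libraries of H3K27me3 were compared between 4 dnTCF4 and 4 PPGS samples. Per the submitters' processing notes, the authors used MACS2 2.1.2 and Bowtie2 2.3.4.1 with build mm10, beside SAMtools 1.2, Picard 2.20.2, bedtools 2.28.0, cutadapt and Trim Galore. Options and control use: not given in the sources used here. Each deposited list has 9 columns for 1 library, with a score, a fold enrichment ratio over background, and −log10 p and −log10 q values per peak, all computed by the authors. Only fold and −log10 q were used, to describe, rank or cut peaks within a list.

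Genes (GRCm38.p6) came from RefSeq. A gene was marked when a peak overlapped by at least 1 base a window of 2 kb either side of either annotated end. Library measures were compared by two-sided exact permutation over the 70 assignments, with Benjamini-Hochberg adjustment over 6 measures. Marks were compared by Fisher's exact test (Python 3.11.15, scipy 1.17.1). The same adjustment was made over all genes marked in at least 1 library, or over all regions. Functions were tested on simulated data. The chromosome, the gene lists and the measures were chosen with earlier results of these data known. Named genes are the list members, the 10 marked in most libraries, up to 10 per direction with the largest difference in libraries, and the genes at the longest, most recurrent and most different regions, and the text gives examples of each. Alternatives were stricter q, equal list lengths, other windows and overlaps, merging within 1 kb, leaving out each library and pairing by replicate number. Some items are not reported here.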

Additional observations from a re-analysis of the deposited data

Results flagged for a closer look

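Within each group of 4 libraries, 38 sets of values were checked for a library that stood apart from the other 3, which chance gives in about 1 set in 20, and 2 were found. PPGS library 4 had the highest distal-part share of chromosome 2 covered length in its group, at 62.9%, while the other PPGS libraries lay close together. PPGS library 2 had the highest fold enrichment in its group at the region near Mocs3, at 6.86. The cause of either was not tested.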

How the results depend on the processing

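The distal-part difference stayed positive in all 14 alternatives, from 7.09 to 17.9 percentage points, with exact p from 0.0286 to 0.257 and adjusted p from 0.0857 to 0.943. Some differences without a call reversed sign, and the cause was not tested: the log10 peak number was 0.015 with −log10 q of at least 3, 0.14 in lists cut genome-wide to equal number and 0.19 in the longer lists cut alike; the log10 covered length was 0.15 in the genome-wide cut. The gene-end difference was −0.178 points with start sites only, and the gene-body difference −7.22 points at the stricter q. The difference in the share of peaks moved to 4.34 points at the stricter q.

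Counts of genes and regions depended on list length. The longer-list cut keeps 3 dnTCF4 and 2 PPGS libraries, so the rules are not equally hard to meet there, and their counts are not comparable. The dnTCF4 rule gave 3, 0, 0 and 24 genes under the stricter q, the chromosome 2 cut, the genome-wide cut and the longer-list cut, and the PPGS rule 1, 0, 0 and 2. With start sites only the dnTCF4 rule gave 2, and with windows covered to 50%, 0, against 2 for the PPGS rule. Regions under those 4 settings numbered 8, 6, 6 and 142 for dnTCF4 and 10, 6, 3 and 14 for PPGS. List genes marked in both groups, 52 in the full lists, were 2, 2, 1 and 9, and 5 with windows covered to 50%.

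Leaving out 1 library at a time, the range was −0.40 to 0.35 for log10 peak number, −0.50 to 0.42 for log10 covered length, −0.074 to 0.072 for log10 median width and −0.54 to 2.46 points for gene ends. It was 1 to 19 genes for the dnTCF4 rule, 0 to 93 for the PPGS rule, 5 to 224 and 1 to 1401 regions, and 30 to 52 list genes. The 93 genes and 1401 regions came without dnTCF4 library 1, whose absence also gave the 30. Replicate numbers did not pair the libraries: deviations of same-numbered libraries over 10 Mb bins correlated at −0.452, 0.296, 0.384 and 0.424, and 1 of 4 dnTCF4 libraries fitted its own number best. With the replicate block the distal-part difference was 15.98 points with an exact sign-flip p of 0.125, the smallest possible.

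Depth is unknown and 3 of the 8 lists hold under 1000 peaks, which limits every count of missing peaks. Cutting the chromosome 2 lists to equal number gives no peak number or share.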
